A study of Rattus norvegicus with 24 samples.

Results

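The transcripts described here are those of 10 heat shock proteins and chaperones of the rat: Hspa1a, Hspa1b, Hspa8, Hspa5, Hsph1, Hspb1, Dnajb1, Bag3, Hspd1 and Hmox1. They are 10 of 35561 gene names on the array and were taken as every probe that carries one of them, which gave 18 of 41012 probes. Male Wistar rats received 1 intraperitoneal injection of MK-801 (dizocilpine), an NMDA receptor channel blocker, at 0.16 mg/kg (high dose) or 0.08 mg/kg (low dose), or of saline. The titles put the word Control before every group, saline and both doses alike, and do not say what it stands for. The labels name 9 rats, 3 of them given saline, and give an age of 9 weeks in one place and 10 weeks in another. The rats were kept 3 to a cage. Brains were removed 40 min after injection and dissected into cortex, hippocampus, amygdala, ventral striatum, hypothalamus and midbrain. Each of 24 arrays held treated RNA against saline RNA of the same region in 2 colours, and each region and dose was measured on 2 arrays of opposite dye. How many rats contributed to an extract is not stated, so a pair of arrays was counted as 1 replicate. The 6 regions were taken from the same rats, which are fewer in a group than the regions, so they are not independent replicates. P-values measure only the spread between these regions, which may be technical, and may be too small as statements about rats.

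Heat shock proteins bind unfolded or damaged proteins and keep them from aggregating. When unfolded proteins accumulate, heat shock factor 1 is released from chaperones, binds heat shock elements in promoters and switches on Hspa1a, Hspb1, Dnajb1 and their relatives. In the brain, Hspa1a and Hspb1 are known as stress-inducible genes of glia, vessels and injured neurons, and NMDA receptor channel blockers are known to induce Hspa1a in neurons of the retrosplenial cortex of the rat. Hspa8 is the constitutive relative of Hspa1a, Hspa5 is the chaperone of the endoplasmic reticulum, Hspd1 that of mitochondria, and Hmox1 is the inducible haem oxygenase that degrades haem.

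The letters of a probe decide which transcript a value belongs to, so probes of the 2 genes that passed a test come first. The array files give the positions of the probes in the rn3 build. Both Hspa1a probes lie on chromosome 20, the brighter one (probe 1) at chr20:3958091-3958150 and the dimmer one (probe 2) at chr20:3957065-3957124, with 966 bases between them. The probe named Hspa1b lies at chr20:3958509-3958568, only 358 bases beyond Hspa1a probe 1, and shares 1 listed accession with it and 0 with probe 2. The Hspb1 probe is 60 bases long and covers chr12:21898758-21898928, a span of 171 bases, so in the files' own coordinates it is split over more than 1 stretch of the genome. Hspa1a probe 1 is given by its position, and the other sequences are printed in lower case throughout.
Hspa1a probe 2: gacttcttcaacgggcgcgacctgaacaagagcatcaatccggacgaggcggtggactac
Hspb1 probe: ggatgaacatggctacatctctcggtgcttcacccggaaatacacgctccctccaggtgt

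Heat shock elements are built from GAA and TTC blocks set 2 bases apart, and they were sought in RefSeq promoter windows of the GRCr8 build, which run from 250 bases before to 50 bases after a gene's start. Windows were matched by symbol for 8 of the 10 genes, all but Hspa1b and Hmox1. A paired element (GAANNTTC or TTCNNGAA, each the same on both strands) was found in 6 of the 8 windows, against 15.9% of all 33469 windows. The tripled form (GAANNTTCNNGAA or TTCNNGAANNTTC, which contains the paired ones) was found in 3 of 8, those of Hspa8, Hspd1 and Hsph1, against 0.798% of all windows. The endoplasmic reticulum stress element (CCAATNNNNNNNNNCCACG on either strand) was found in that of Hspa5 and in 0.0657% of all. The antioxidant response element (TGACNNNGC or GCNNNGTCA) was found in those of Bag3 and Dnajb1, against 12.1% of all. In the Hspa1a window these letters were not found. The stretches below show how differently the members carry the element, with the matches in capitals, each read 5′ to 3′ towards the gene.
Hspb1 promoter (chr12:26432385-26432448, minus strand): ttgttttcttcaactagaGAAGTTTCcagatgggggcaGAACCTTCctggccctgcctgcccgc
Hspd1 promoter (chr9:64084244-64084287, minus strand): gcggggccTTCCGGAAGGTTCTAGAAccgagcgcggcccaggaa
Hspa8 promoter (chr8:50080441-50080489, plus strand): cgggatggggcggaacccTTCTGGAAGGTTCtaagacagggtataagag
Hsph1 promoter (chr12:10427314-10427362, plus strand): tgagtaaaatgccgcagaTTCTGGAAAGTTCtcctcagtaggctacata
Hspa5 promoter (chr3:38452955-38453009, plus strand): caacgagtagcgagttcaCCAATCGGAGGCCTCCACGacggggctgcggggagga

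Few members moved. Changes are given on the log2 scale as treated over saline, as the mean over 6 regions with its SE, and a probe was called when its limma p-value, adjusted by Benjamini-Hochberg over all probes tested, was under 0.05. At the high dose 16 of the 18 member probes could be tested and 1 was called, Hspb1, which was higher. The background at this dose was 1.78% of 28883 probes called, with 0.917% higher and 0.866% lower. At the low dose 15 could be tested and 2 were called, Hspb1 and Hspa1a probe 1, both lower, against 2.19% of 29000 probes called and 1.11% lower (1.09% higher). Tested against each other, the doses differed for the same 2 of 15 member probes, both higher at the high dose, against 1.31% of 28719 called and 0.759% higher. The median change of the members tested was -0.0013 with the high dose and -0.0038 with the low one, against -0.0018 and 0.0022 over all probes. Both doses were set against saline RNA of the same regions, so their values are not independent.

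**Figure D1:**
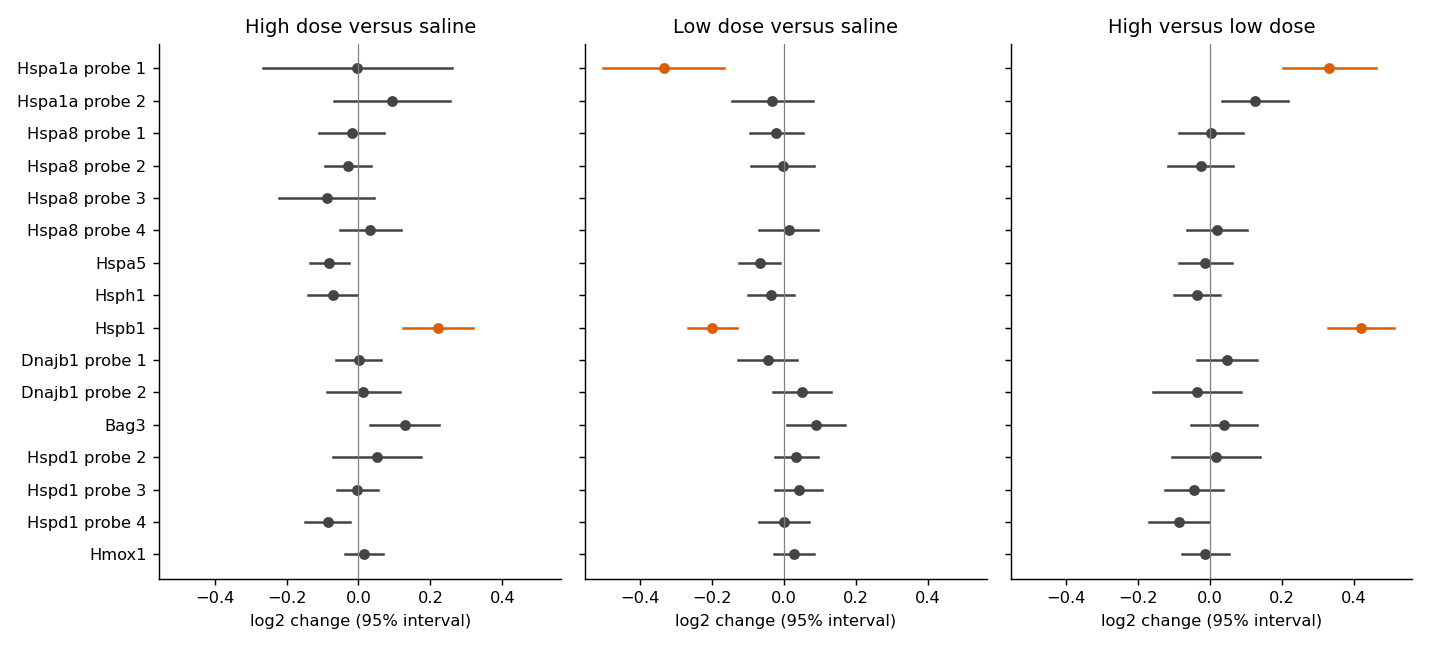
Mean log2 change of each tested member probe (points) with its 95% interval from limma over 6 regions (lines), in the 3 comparisons; orange marks probes called at an adjusted p under 0.05. Hspb1 is called in all 3 panels and Hspa1a probe 1 in the low-dose and the dose-against-dose panels. The other intervals lie between -0.27 and 0.26, and some, such as that of Bag3 at the high dose (0.033 to 0.22), do not reach 0. A probe without a point could not be tested in that panel.

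Hspb1, a small heat shock protein that holds unfolded proteins and stabilises actin filaments, was higher after the high dose and lower after the low dose. At the high dose its log2 ratio was 0.39 in the cortex, 0.35 in the amygdala, 0.24 in the ventral striatum, 0.19 in hippocampus, 0.14 in midbrain and 0.0069 in the hypothalamus. All 6 regions were thus above 0, the hypothalamus barely so, and 11 of 12 single arrays were above 0. The mean was 0.22 ± 0.04 (SE, n = 6 regions), a ratio of 1.17 (limma adjusted p = 0.0278). After the low dose the log2 ratio was -0.13 in the cortex, -0.14 in the amygdala, -0.15 in the midbrain, -0.21 in the ventral striatum, -0.24 in the hypothalamus and -0.33 in the hippocampus, so all 6 were below 0. It follows from these signs that the regions of the 2 doses did not overlap. The share of all probes that do the same was not counted. The low-dose mean was -0.20 ± 0.03 (limma adjusted p = 0.00433), a ratio of 0.871. High minus low was 0.42 ± 0.04, a ratio of 1.34 (limma adjusted p = 0.000154), and it ran from 0.25 in the hypothalamus to 0.52 in the hippocampus.

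The colour of the dye bore on each dose alone but hardly on their difference. With treated RNA in Cy5, Hspb1 stood at 0.37 after the high dose (limma adjusted p = 0.000802) and at -0.057 after the low dose (0.328). With treated RNA in Cy3 it stood at 0.070 (limma adjusted p = 0.261) and -0.34 (2.86e-05). The difference between doses was 0.43 and 0.41 in the 2 orientations, called in both. Arrays were scanned on 3 days, each holding 2 regions, and the difference was 0.48, 0.39 and 0.39 within scan days 1, 2 and 3 (limma adjusted p = 0.00553, 0.117 and 0.0885). The high-dose call was lost without the cortex (0.19), the hippocampus (0.23), the amygdala (0.19) or the ventral striatum (0.22), with limma adjusted p between 0.0660 and 0.108, and under the scanner software's processed signals (0.26, 0.122). The low-dose call kept its size under those signals but missed the threshold (-0.22, limma adjusted p = 0.0560). With arrays centred on their median in place of loess, the high-dose call was also lost (0.20, limma adjusted p = 0.63). The difference between doses then missed the threshold (0.40, limma adjusted p = 0.0562), while the low-dose call was kept (-0.21, 0.0310).

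**Figure D2:**
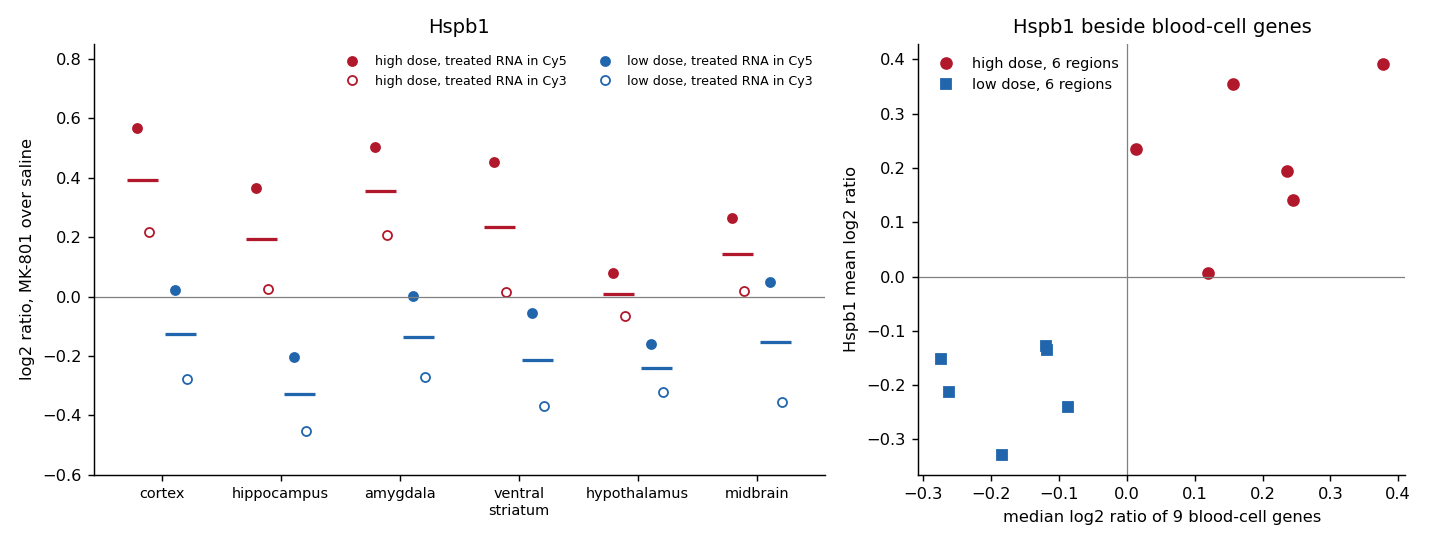
Left, log2 ratio of Hspb1 on every array by region (filled points, treated RNA in Cy5; open points, treated RNA in Cy3; bars, mean of the pair; red, high dose; blue, low dose). Right, the 12 Hspb1 means against the median log2 ratio of 9 blood-cell genes in the same region and dose; the 6 high-dose points lie above 0 on both axes and the 6 low-dose points below 0 on both.

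Transcripts of blood cells moved in the same direction as Hspb1. Of the 9 blood-cell genes found on the array, 8 were tested at the high dose and 4 were higher, namely Hbb (a beta globin, 0.33 ± 0.07), Alas2 (the erythroid enzyme that starts haem synthesis, 0.30 ± 0.04), Pf4 (a platelet chemokine, 0.32 ± 0.04) and Slc4a1 (the anion exchanger of red cells, 0.18 ± 0.03). The Hbb call at this dose was lost in 10 of 21 alternatives, among them leaving out the cortex (0.32), hippocampus (0.32), amygdala (0.27) or midbrain (0.32), and that of Slc4a1 in 8 of 20, among them leaving out the amygdala (0.17). For the low dose 7 were tested and 4 were lower: Hbb-b1 (-0.64 ± 0.08), Hba-a3 (-0.57 ± 0.06), Hbb (-0.54 ± 0.08) and Alas2 (-0.31 ± 0.06). The median of the 9 was above 0 in 6 of 6 regions after the high dose (0.014 to 0.38) and in 0 of 6 after the low dose (-0.27 to -0.086). Their summed intensity ran from 105111 to 169215 in saline and from 116274 to 217329 in treated RNA of the high-dose arrays. On the low-dose arrays it ran from 111748 to 209309 in saline and from 82674 to 128495 in treated RNA. In the ventral striatum the sum fell at the high dose, from 121571 in saline to 116274 in treated RNA. There 6 of the 9 genes were higher. With the low dose the sums of this region were 209309 and 111498, so its 2 saline sums differed more than its treated sums. In no region were more than 2 of the 9 without a saline reading well above background. Between doses 6 of 7 tested were higher at the high dose. The order of regions differed: in the ventral striatum the blood median was 0.014 and Hspb1 0.24, and in the hypothalamus 0.12 and 0.0069. Some other marker lists had region medians on both sides of 0 at each dose. Endothelial and mural medians ran from -0.12 to 0.074 at the high dose and from -0.075 to 0.011 at the low dose. In the same order, meningeal medians ran from -0.53 to 0.55 and from -0.80 to 0.085, and choroid plexus medians from -0.41 to 0.89 and from -0.35 to 0.20. The part of blood or of these cells in the Hspb1 values was not tested. In dissected tissue fewer cells of a type and less RNA per cell cannot be told apart.

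Hspa1a, the major stress-inducible cytosolic HSP70, differed among regions more than any other member. After the high dose probe 1 read 0.79 on both cortex arrays, a ratio of 1.73. It read 0.11 and 0.0044 in the amygdala, 0.15 and -0.14 in the ventral striatum, and 0.15 and -0.29 in the hippocampus, with treated RNA in Cy5 and Cy3 in that order. It read -0.38 and -0.49 in the hypothalamus and -0.23 and -0.52 in the midbrain. The cortex was thus the one region clearly above 0, the hypothalamus and midbrain were below 0 on both arrays, and the rest lay near 0 or straddled it. The SD over regions was 0.44, against a median SD of 0.14 within a pair of arrays. The mean over regions was therefore near 0 (-0.0033 ± 0.12, limma adjusted p = 0.996).

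With the low dose the same probe read 0.13 in the cortical piece, -0.19 in the hippocampus, -0.31 in the amygdala, -0.44 in the ventral striatum, -0.58 in the midbrain and -0.62 in the hypothalamus. Of 6 regions 5 were lower, the cortex again standing highest. The mean was -0.34 ± 0.08 (limma adjusted p = 0.0452), a ratio of 0.793. That call stood close to the threshold: it was lost in 13 of 21 alternatives, among them leaving out any 1 region other than the cortex (-0.36 to -0.28, limma adjusted p between 0.0818 and 0.164), and without the cortex it was -0.43 (0.00178). Blood-cell genes were also lower at this dose (values above), and their part in the Hspa1a values was not tested.

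Hspa1a probe 1 read higher with the high dose than with the low one in 6 of 6 regions, by 0.66 in the cortex, 0.44 in the ventral striatum, 0.37 in the amygdala, 0.21 in the midbrain, 0.18 in the hypothalamus and 0.12 in the hippocampus. The mean difference was 0.33 ± 0.06, a ratio of 1.26 (limma adjusted p = 0.0122). It was not called without the ventral striatum (0.31, limma adjusted p = 0.0652), with treated RNA in Cy5 alone (0.32, 0.0803), with the scanner software's processed signals (0.36, 0.147) or with arrays centred on their median in place of loess (0.30, 0.797). Within scan days 1, 2 and 3 it was 0.55, 0.29 and 0.15 (limma adjusted p = 0.00553, 0.276 and 0.481).

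**Figure D3:**
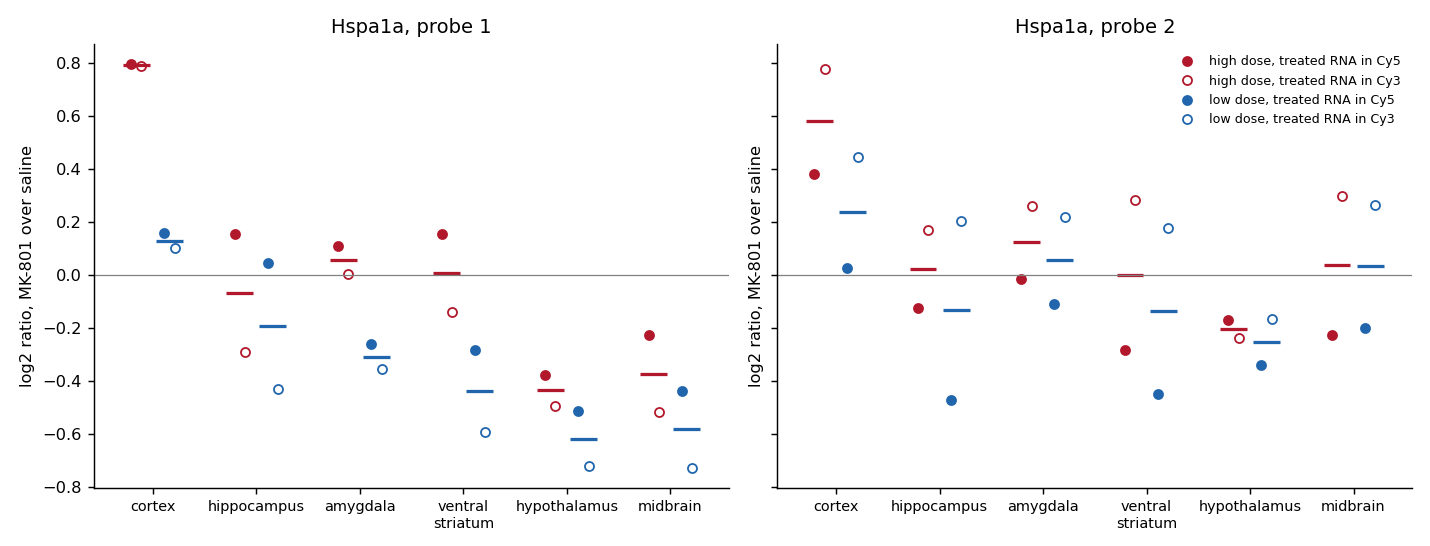
Log2 ratio of the 2 Hspa1a probes on every array by region (filled points, treated RNA in Cy5; open points, treated RNA in Cy3; bars, mean of the pair; red, high dose; blue, low dose). In both panels the cortex at the high dose is highest, and the high-dose bar lies above the low-dose bar in every region.

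The dimmer Hspa1a probe gave the same order of doses with a smaller mean difference. With the high dose it read 0.58 in the cortex, a ratio of 1.49, and -0.20 in the hypothalamus, with the other 4 regions between -0.00058 and 0.12. With the low dose it ran from 0.24 in the cortex to -0.25 in the hypothalamus, with 3 regions above 0 and 3 below. The fall of probe 1 in 5 regions was thus not repeated. At this dose probe 2 read 0.055 in the amygdala and 0.033 in the midbrain, where probe 1 read -0.31 and -0.58. In the high-dose midbrain probe 2 read 0.036 and probe 1 -0.37. The means of probe 2 were 0.09 ± 0.07 with the high dose and -0.03 ± 0.05 with the low one (limma adjusted p = 0.699 and 0.859). High minus low was 0.13 ± 0.04, higher in 6 of 6 regions (0.0028 in the midbrain to 0.34 in the cortex), and not called (limma adjusted p = 0.283). Over the 12 means of region and dose, which share saline RNA, the 2 probes had a Pearson correlation of 0.87, given as a description. Their dye effects pointed opposite ways, with probe 1 reading 0.12 above its pair mean when treated RNA was in Cy5 and probe 2 reading 0.20 below it.

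The probe named Hspa1b, after the neighbouring and nearly identical HSP70 gene, was too dim to be tested. It was well above background in 1 of 24 treated readings, on a high-dose cortex array, and in 0 of 24 saline readings. No fold is given, since it was not well above background in either RNA. Both Hspa1a probes and this one lie close together, between bases 3957065 and 3958568 of chromosome 20. Whether Hspa1b RNA also binds the Hspa1a probes was not tested, so their values cannot be ascribed to Hspa1a alone.

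The genes whose pattern over the 12 means was most like that of Hspa1a probe 1 were Bcl6b (Pearson r = 0.948), Ccl2 (0.936), Ppp1r15a (0.934), Klf2 (0.928) and Adamts1 (0.922), among 657 candidates that varied by an SD of at least 0.15. For Hspb1 they were Opalin (0.889), Alas2 (0.881), Hba-a3 (0.870), Haus1 (0.867) and Ccdc65 (0.849), among 658. The set of Hspb1 holds the erythroid genes Alas2 and Hba-a3, but also Opalin, which ranks highest, Haus1 and Ccdc65, which are not on the blood list. Each set holds only the few closest genes, so whether the 2 members differ in pattern was not tested. The 12 means share saline RNA and slides, so these values are descriptions.

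Among the other cytosolic chaperones and their partners no probe was called. Hspa8, the constitutive HSP70 of neurons that also uncoats clathrin vesicles, has 4 probes. Of these 4, all tested at the high dose gave -0.09 to 0.03, and the 3 tested at the low dose gave -0.022 to 0.013, probe 3 lacking a midbrain value there because its spots were marked as outliers. Hsph1, the HSP110 that exchanges nucleotide on HSP70, stood at -0.07 ± 0.03 with the high dose and -0.04 ± 0.03 with the low one (limma adjusted p = 0.399 and 0.690). Dnajb1, the HSP40 that delivers clients to HSP70, gave 0.00040 ± 0.028 and 0.014 ± 0.046 at the high dose on its 2 probes, and -0.046 ± 0.038 and 0.050 ± 0.037 at the low dose. Each of these means was smaller in size than its SD between regions. The 95% interval of Hsph1 at the high dose still did not reach 0 (-0.14 to -0.0035).

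Bag3, the cochaperone that links HSP70 to autophagy and is itself a target of heat shock factor 1, had the largest mean of the uncalled members. After the high dose it read 0.28 in the midbrain, from 1 array only, 0.26 in the ventral striatum, 0.18 in the cortex, 0.098 in the hypothalamus, -0.012 in the hippocampus and -0.045 in the amygdala. After the low dose it read 0.24 in the ventral striatum, 0.15 in the hippocampus, again from 1 array, and between -0.09 and 0.09 elsewhere. The ventral striatum was thus high at both doses and the amygdala lowest at both, against saline RNA of the same regions. The amygdala arrays straddled 0, at -0.20 and 0.11 for the high dose and -0.33 and 0.15 for the low dose (treated RNA in Cy5, then Cy3). The means were 0.13 ± 0.04 and 0.09 ± 0.04 (limma adjusted p = 0.241 and 0.340).

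Hspa5, known as BiP and induced by unfolded proteins in the endoplasmic reticulum, was below 0 in 6 of 6 regions at the high dose (-0.12 in the midbrain to -0.020 in the cortex, the hypothalamus from 1 array) and in 5 of 6 at the low dose. Its means were -0.08 ± 0.02 and -0.07 ± 0.03 (limma adjusted p = 0.176 and 0.289), and neither was called. Hspd1, the mitochondrial HSP60, has 4 probes. Its probe 1 lacked a midbrain value, since the scanner software had marked the spots there as outliers, and was not tested. The other 3 Hspd1 probes gave -0.09 to 0.05 with the high dose and 0.00018 to 0.040 with the low one. Probe 4 was below 0 in 6 of 6 regions at the high dose (-0.09 ± 0.03, limma adjusted p = 0.235). Hmox1, read from 10 spots an array, hardly varied among regions: 0.015 ± 0.024 with the high dose and 0.027 ± 0.025 with the low one, with regions between -0.04 and 0.06.

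For the uncalled probes these values bound the size of a change rather than show its absence. At the high dose the 95% intervals of all 15 lay within 1.5-fold of no change, from a ratio of 0.831 to 1.20. At the low dose the 13 uncalled probes lay between 0.904 and 1.12, and for high against low the 13 lay between 0.890 and 1.16. The number of member probes with an unadjusted limma p under 0.05 was 5 of 16 at the high dose, 4 of 15 at the low dose and 4 of 15 between doses, against 11.6%, 12.5% and 10.3% of all probes tested. These intervals refer to the mean over regions, so they do not bound a change in 1 region such as that of Hspa1a in the cortex.

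In saline RNA the members had different levels across regions. Levels are log2 intensities of the saline channel, given as the mean over up to 4 arrays, and are compared between regions for 1 probe at a time. Hspa1a was highest in the hippocampus with both probes: probe 1 stood at 11.08 there, 10.18 in the amygdala, 10.06 in the midbrain, 9.74 in the hypothalamus, 9.73 in the cortex and 9.70 in the ventral striatum. The 4 hippocampal arrays all lay above those of the next region, by at least 0.56, while the lowest 3 regions overlapped. Probe 2 stood at 9.07 in the hippocampus and between 7.36 and 8.22 elsewhere, with a gap of at least 0.57. The cortex, where the high-dose ratio was largest, was thus among the regions with the lowest saline level.

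Bag3 spanned the widest range of saline levels, 2.27 log2 units, from 11.38 in the cortex to 12.99 in the hypothalamus and 13.65 in the midbrain. The midbrain arrays lay apart from those of the hypothalamus, by at least 0.32, and the cortex lay below all other regions. Hmox1 was highest in the midbrain (9.17) and between 8.68 and 8.85 elsewhere. Hspb1 was nearly level, from 9.36 in the ventral striatum to 9.72 in the midbrain, and 0 of its 5 neighbouring pairs in that order lay apart. For Hspa5, Hsph1, Dnajb1 probe 1 and all 4 Hspd1 probes the arrays of neighbouring regions overlapped throughout. Since each region lay on 1 slide, levels cannot be told apart from differences between slides.

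**Figure D4:**
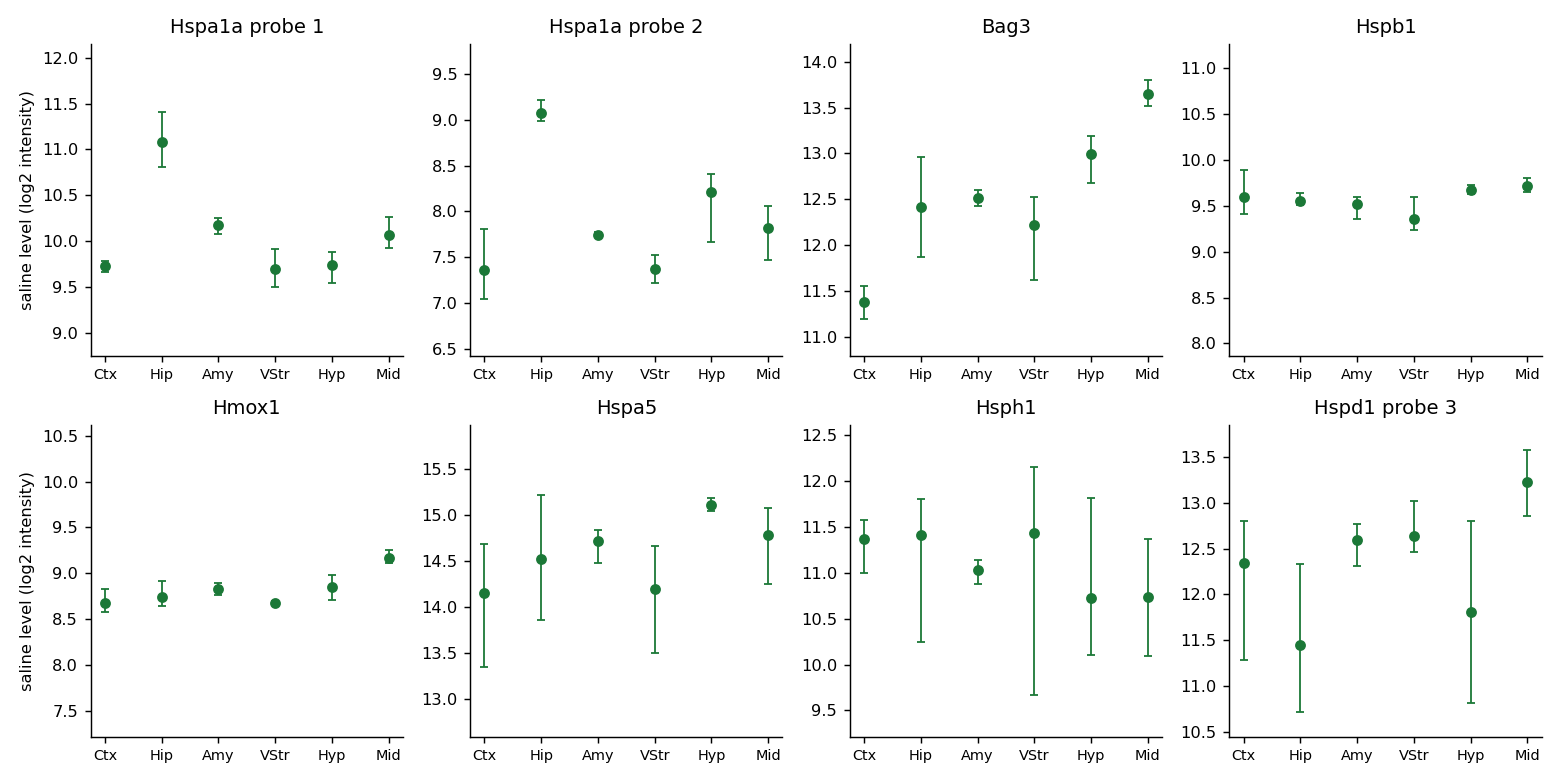
Saline-channel level (log2 intensity) of 8 member probes in cortex (Ctx), hippocampus (Hip), amygdala (Amy), ventral striatum (VStr), hypothalamus (Hyp) and midbrain (Mid); points are means over up to 4 arrays and bars run from the lowest to the highest array, with every panel spanning the same log2 range. Both Hspa1a probes are highest in the hippocampus and Bag3 and Hmox1 in the midbrain, while Hspb1 is nearly level.

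The pieces largely carried the markers of their labels. The striatal genes Drd1, Drd2, Ppp1r1b and Rgs9 were highest in the ventral striatum, Th and Slc6a3 in the midbrain, Prox1 and Neurod6 in the hippocampus, and Pmch and Oxt in the hypothalamus. Against their labels, Avp was highest in the amygdala and Hcrt in the cortex, and Prkcd, abundant in the thalamus, was highest in the hypothalamus. Over the arrays, 56.3% to 79.1% of spots were well above background in both channels, and 236 to 708 spots were marked as outliers. For the members, 20 of 216 means of region and dose rested on 1 array and 3 had none, and none of these belonged to Hspa1a or Hspb1.

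Other genes of the chaperone network were followed in 7 lists. Their counts stand against 1.78% of all probes called at the high dose, 2.19% at the low dose and 1.31% between doses. The list of other cytosolic HSP70, HSP90 and HSP110 genes had 11 on the array, among them Trap1 and Hspa13, which are not cytosolic. Of these, 0 of 9 tested were called at the high dose, 0 of 10 at the low dose and 0 of 9 between doses. The most changed was Hspa2 (0.19 ± 0.07 at the high dose, limma adjusted p = 0.286). Of 13 genes of the chaperonin list, which also takes in other classes such as Hspa9, Clpp and Lonp1, 0 were called in any comparison. Hspe1, the cochaperonin of Hspd1, was the most changed (0.031 ± 0.027 with the high dose and -0.049 ± 0.038 with the low dose). Among 8 small heat shock proteins 1 was called, Cryab (alpha B crystallin), which rose at the low dose by 0.19 ± 0.03 in 6 of 6 regions (limma adjusted p = 0.00381), where Hspb1 fell. Of 11 oligodendrocyte markers 2 were also called higher and 0 lower at that dose, with a median above 0 in 6 of 6 regions (0.024 to 0.16), and of 11 microglial markers 4 higher and 0 lower (0.036 to 0.16 in 6 of 6). Summed oligodendrocyte intensity ran from 103720 to 366015 in saline and from 103226 to 396172 in treated RNA, microglial from 35653 to 57961 and from 38398 to 62679, and 0 markers of either list lacked a saline reading well above background. Their part in the Cryab value was not tested. With the high dose Cryab stood at 0.057 ± 0.036 (limma adjusted p = 0.603), and its difference between doses was not called (-0.14 ± 0.04, 0.131).

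Among 23 J-domain and nucleotide exchange cochaperones 1 was called, Dnajc10, a reductase of the endoplasmic reticulum, which rose at the high dose (0.17 ± 0.03, limma adjusted p = 0.00505) on 1 of its 2 probes and stood at 0.017 ± 0.041 on the other. In the single orientations, where dye effects do not cancel, it stood at 0.37 with treated RNA in Cy3 and -0.036 in Cy5. Among 13 HSP90 cochaperones and heat shock factors Fkbp5, the glucocorticoid-induced immunophilin that binds HSP90, rose at the high dose (0.19 ± 0.04, limma adjusted p = 0.0357) and the low dose (0.17 ± 0.04, 0.0409), in 6 of 6 regions each. Its other 2 probes gave 0.16 and 0.18 at the high dose and 0.13 (not called) and 0.19 at the low dose. Cdc37l1, a relative of the kinase cochaperone Cdc37, rose at the low dose (0.16 ± 0.03, limma adjusted p = 0.00695), and a further probe of this gene gave 0.10 and was not called (0.143).

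Among 21 genes of the unfolded protein response of the endoplasmic reticulum, 1 rose and 1 fell at the high dose and 1 fell at the low dose. Ppp1r15a (GADD34), which directs the phosphatase that restores translation, rose by 0.40 ± 0.07 at the high dose, from 0.08 to 0.84 over 6 of 6 regions (limma adjusted p = 0.0138), and stood at 0.19 ± 0.05 at the low dose (0.0934). Pdia4, a disulphide isomerase, was at -0.14 ± 0.03 at the high dose (limma adjusted p = 0.0459), and Atf6, a sensor of unfolded proteins, at -0.15 ± 0.03 at the low dose (0.0222). Among 25 genes of the NRF2 and oxidative stress response, Mt1a (a metallothionein) rose at the high dose (0.17 ± 0.03, limma adjusted p = 0.0220; 0.48 with treated RNA in Cy5 and -0.13 in Cy3). Between doses Mt1a was higher with the high dose (0.19 ± 0.04, limma adjusted p = 0.0274). Blvra, biliverdin reductase, which acts after Hmox1, was lower with the high dose than with the low one (-0.17 ± 0.03, limma adjusted p = 0.0176). Medians of these 7 lists lay between -0.021 and 0.039 at either dose, against -0.0018 and 0.0022 over all probes.

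**Figure D5:**
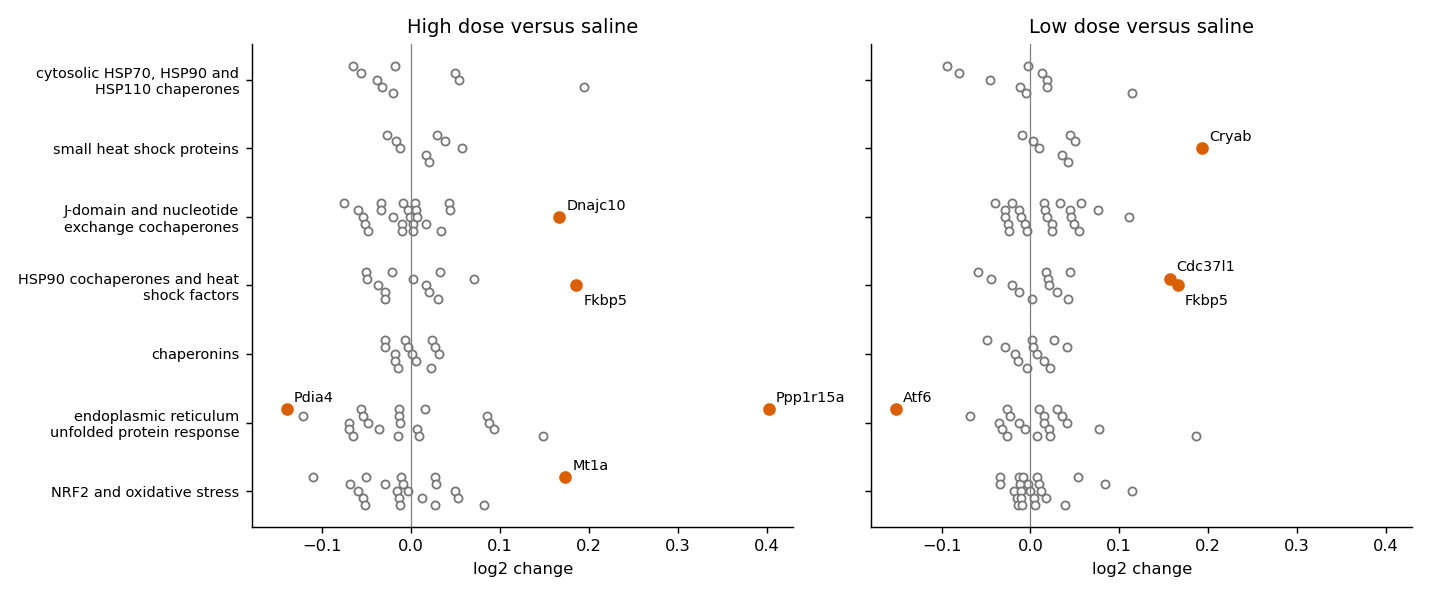
Mean log2 change over 6 regions of the tested genes of 7 lists of the chaperone and stress network (1 point a gene, its brightest probe; points are staggered within a list), at the high dose (left) and low dose (right). Orange points, with names, are called by limma at an adjusted p under 0.05; Ppp1r15a at 0.40 stands farthest from 0.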

How the data were processed

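Spot intensity in both channels was deposited as scanner output, on a linear scale, and the file headers hold a local background for each spot. The scanner software was Agilent Feature Extraction 9.5.3.1, per the submitters' processing notes. The authors' deposited value table held log10 ratios of treated over saline, and 100% of its values matched the scanner software's processed signals within 0.011 once dye-swapped arrays were turned. Its column medians ran from -0.03 to 0.02. RNA was column-purified and linearly amplified, per the labels' protocols.

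Background was corrected with normexp (offset 50) and ratios were normalised by loess within arrays in limma 3.58.1 under R 4.3.3. Outlier spots were left out, spots of 1 probe were averaged, swapped arrays were turned and each pair was averaged. Probes were tested with lmFit and eBayes over 6 regions where at least 12 of 24 channel readings of a dose (24 of 48 for both) were well above background and every region had a value. Saline levels were taken after Aquantile. Genes of lists were represented by their brightest probe, and named when called, at most 4 a comparison, else the most changed 1. Median net signal ranged from 47.3 to 357 units. The number of arrays limits the precision. The fit was tested on simulated data. Figures were drawn with matplotlib 3.10.9 (Python 3.11.15). Promoter sequences came from RefSeq (GRCr8), and probe positions are those of the files (rn3). No annotation of rn3 was used here, and no exon is named. The 18 member probes and the lists were chosen with earlier results of these data known. Alternatives covered intensities, normalisation, offset, filter, outlier spots, probes per gene, variance model, scan day, dye orientation and each region left out.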

Additional observations from a re-analysis of the deposited data

Results flagged for a closer look

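In 54 checks of member probes for a region that stood apart from the other 5, 2 were found, and chance alone gives about 1 in 20. At the high dose Hspd1 probe 2 read 0.41 in the midbrain, where the next highest region was at 0.054. That value rested on 1 array, with treated RNA in Cy3, an orientation in which this probe read above 0 on 12 of 12 arrays, while with treated RNA in Cy5 it read above 0 on 0 of 11. For Hmox1 the amygdala stood apart in the difference between doses, at -0.075 with the next lowest region at -0.015.

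The doses differed for Hspa1a probe 1 by 0.33 (higher at the high dose in 6 of 6 regions, limma adjusted p = 0.0122) and for Hspb1 by 0.42 (6 of 6, 0.000154), by the test of the difference itself.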

How the results depend on the processing

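Replicate numbers mark the dye orientation within a region, so arrays could not be paired by rat, and both arrays of a pair entered as 1 replicate. The difference between doses was taken within each region. The 5 calls of member probes kept their direction in all 21 alternatives, but not all kept their side of the threshold. The count of member probes called, 1 at the high dose, 2 at the low dose and 2 between doses, was 0, 0 and 1 with the processed signals or the deposited table, 0, 1 and 0 with median centring, and 1 at the low dose with an offset of 16, with both channels well above background on every array, or with scan day as a block. With 2 regions of scan day 1 alone the low-dose count was 0. Scan day 2 alone gave 0, 0 and 0, and scan day 3 alone gave 0 at the high dose and 0 between doses; there the smaller number of regions limits the test. Leaving out 1 region gave 0 to 1 at the high dose, 1 to 2 at the low dose and 1 to 2 between doses. Leaving out 1 dye orientation gave 3 to 4, 6 to 8 and 1 to 2. With treated RNA in 1 colour alone dye effects do not cancel, and all probes called rose from 515 to between 7326 and 8439 at the high dose and from 636 to between 8415 and 9404 at the low dose, while those between doses fell from 376 to between 137 and 278. All probes called in the 3 comparisons were 279, 309 and 163 with the processed signals, 283, 298 and 158 with the deposited table, and 85, 221 and 35 with median centring. They were 317, 181 and 120 on scan day 1 alone, 147, 46 and 57 on day 2 and 109, 213 and 84 on day 3. Leaving out 1 region gave 304 to 449, 411 to 558 and 257 to 319.

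Of 919 values of member probes under the alternatives, 106 had a sign opposite to the reported one, 87 of them in settings other than 1 dye orientation, but of these 87 none passed the limma threshold, nor had the reported value. The 6 that passed it came from 1 dye orientation. Values with treated RNA in Cy3 and in Cy5 were 0.25 and -0.18 for Hspa8 probe 4 at the high dose. At the low dose they were 0.28 and -0.26 for Hspa8 probe 4, 0.31 and -0.21 for Dnajb1 probe 2, 0.19 and -0.26 for Hspa1a probe 2, 0.30 and -0.23 for Hspd1 probe 2, and 0.18 and -0.18 for Hspd1 probe 4. Of the listed genes, whose alternatives were added after seeing the data, they were 0.37 and -0.036 for Dnajc10 and -0.13 and 0.48 for Mt1a at the high dose, and -0.33 and 0.29 for Mt1a and 0.33 and -0.23 for Dnaja4 at the low dose. Fkbp5 lost its call in 14 of 21 alternatives at either dose, Pdia4 in 16, Atf6 in 13, Mt1a in 10 at the high dose and 12 between doses, Blvra in 10, Cryab in 7, Cdc37l1 in 6, Ppp1r15a in 5 and Dnajc10 in 4, with its sign turned in 1 more; causes were not tested. Dim probes such as Hspa1b limit what can be seen, as do the few arrays.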
